A study of Bos taurus with 13 samples.

Results

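The genes described here are 47 genes known for meiosis and for the making of sperm: genes of recombination and chromosome pairing, of sperm chromatin, of the acrosome, of the flagellum and of sperm metabolism. They were measured in testes of newborn bull calves, whose germ cells have not yet entered meiosis. A member was taken where a probe set of the array carried its symbol and no other gene's, and where a gene had several such probe sets the one with the highest mean over all arrays was used. In this way 44 of the 47 genes were found, among 18087 genes measured in all. SPERT was found under its present symbol CBY2. OAZ3 and TSSK2 had no probe set of their own symbol, and SYCP3 had only one shared with CHPT1, so these 3 genes are not analysed here.

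The calves were sons of Angus cross cows, of which 24 had been assigned at random, 8 to a treatment. Every cow was offered minerals and vitamins ad libitum, starting 4 months ahead of breeding, with selenium at 35 ppm in the supplement. The treatments differed in the chemical form of that selenium. It was sodium selenite (inorganic, ISe, 5 calves), the organic product Sel-Plex (OSe, 4 calves) or 50% of each (Mix, 4 calves). Testis was taken within 2 days of birth, and the RNA of each calf was hybridised to its own array, so each value stands for 1 animal. No group without added selenium is among the samples.

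In male mammals the gonads of the newborn hold gonocytes, the precursors of spermatogonia, inside cords of Sertoli cells. Meiosis begins only later in life, when retinoic acid switches on STRA8. The cells then build a protein axis along each chromosome and cut their DNA with SPO11. They repair it with DMC1 and join the homologues by the synaptonemal complex. After meiosis, round spermatids form an acrosome and a tail and exchange their histones first for transition proteins (TNP1, TNP2) and then for protamines (PRM1, PRM2, PRM3). Many of these genes are copied into RNA well before their proteins act, so a transcript does not mark the step by itself.

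The tissue label was borne out by cell type markers. The Leydig cell hormone INSL3 averaged 13.44 on the log2 scale of the array and the Sertoli cell hormone AMH 12.48. The germ cell RNA-binding protein DAZL averaged 11.15 and the germ cell helicase DDX4 8.83. INSL3, AMH and DAZL were the highest genes of their marker lists, which held 6, 10 and 23 genes. The lowest means in those lists were 9.68, 6.11 and 5.84. Array medians ran from 7.61 to 7.65 on 12 arrays, and OSe animal 2 stood apart at 7.74. Correlations between arrays over all probe sets were 0.979 to 0.991.

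A microarray gives some light for every probe set, whether or not its transcript is present, so a working floor was taken from genes that belong to other organs. A list of 96 measured genes of the lens, retina, tooth enamel, pancreas, pituitary, milk, stomach, skin, liver, lung, kidney and gut had a median level of 6.12. The 90th percentile of that list, here called the other-organ level, lay between 6.98 and 7.24 depending on the array, close to the 40.7th percentile of all probe sets. A gene was called above it where it exceeded that level on all 13 arrays, below it where it did so on none, and between otherwise. By this rule 5 of the 96 other-organ genes were themselves above, 16 were between and 75 were below. Probe sets bind their targets with different strength, so a place on this scale is a rough guide and 2 genes near each other on it have no order.

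Of the 44 genes, 12 were above the other-organ level, 6 were between and 26 were below. Over all genes measured, 60.6% were above and 26.5% were below. The median gene of the group stood at the 28.8th percentile of all probe sets, 10 genes stood above the median probe set (7.64) and 18 stood below the 25th percentile (6.26). By role, 3 of 7 meiosis genes were above, as were 2 of 5 genes of sperm chromatin, 2 of 10 of the acrosome and egg binding, 4 of 13 of the flagellum, 1 of 3 chaperones, 0 of 3 glycolytic isoenzymes and 0 of 3 testis-specific kinases. The choice of the floor decided the middle of the scale. With the median of all probe sets as the floor 7 genes were above, and with the 25th percentile of all probe sets, or with 711 olfactory receptor genes as the list, 20 were.

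**Figure D1:**
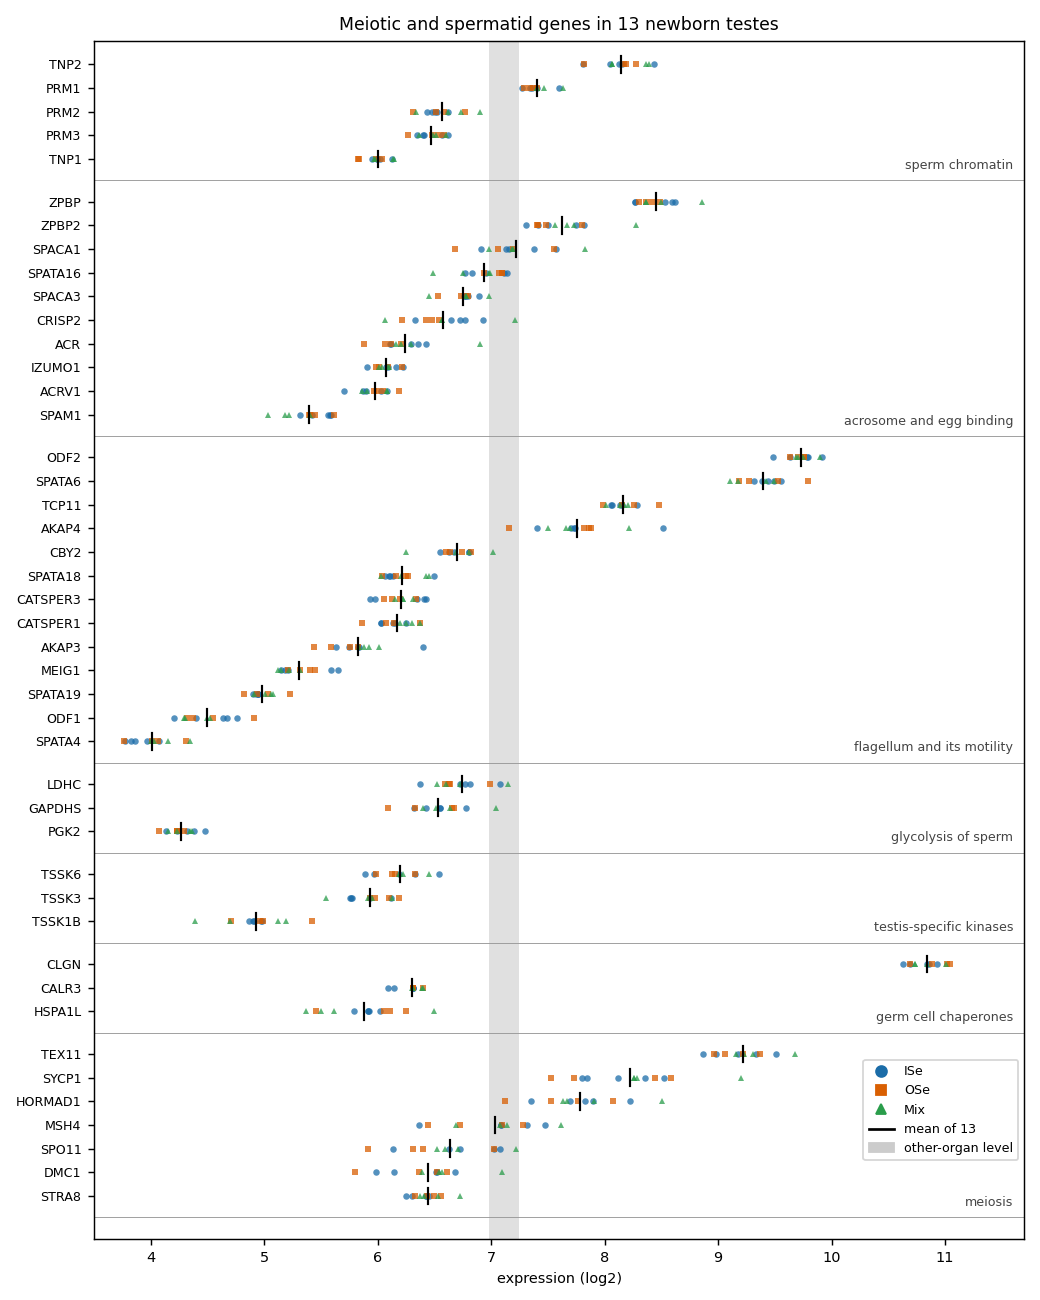
Level of each of the 44 genes (log2, horizontal axis) in the 13 calves, grouped by role, with a dot per calf coloured by selenium form and a black bar at the mean. The grey band is the other-organ level over the arrays (6.98 to 7.24). CLGN stands highest with a mean of 10.84 and SPATA4 lowest with 4.01.

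Of the meiosis genes, TEX11, SYCP1 and HORMAD1 were above the other-organ level. TEX11, an X-linked protein of crossover formation, measured 9.34, 9.17, 8.87, 9.51 and 8.99 in ISe animals 1 to 5, 9.22, 8.96, 9.37 and 9.06 in OSe animals 1 to 4, and 9.16, 9.31, 9.68 and 9.23 in Mix animals 1 to 4. SYCP1, the transverse filament of the synaptonemal complex, measured 8.12, 8.53, 7.80, 8.35 and 7.85 in ISe animals 1 to 5, 8.45, 7.73, 8.58 and 7.52 in OSe animals 1 to 4, and 8.28, 8.26, 9.20 and 8.26 in Mix animals 1 to 4. HORMAD1, a protein of the chromosome axis, measured 7.70, 7.90, 7.36, 8.22 and 7.83 in ISe animals 1 to 5, 8.07, 7.12, 7.77 and 7.53 in OSe animals 1 to 4, and 7.63, 7.67, 8.51 and 7.91 in Mix animals 1 to 4. All 13 calves were above the other-organ level for each of these genes, Mix animal 3 was the highest of all calves in each, and the 3 groups overlapped.

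MSH4, which stabilises crossover intermediates, was above that level on 6 of 13 arrays, with 7.09, 7.32, 6.36, 7.48 and 7.09 in ISe animals 1 to 5, 7.28, 6.45, 7.09 and 6.72 in OSe animals 1 to 4, and 6.69, 7.08, 7.61 and 7.14 in Mix animals 1 to 4. For SPO11, the enzyme that cuts DNA to start recombination, the values were 6.72, 7.02, 6.14, 7.08 and 6.63 in ISe animals 1 to 5, 7.03, 6.31, 6.40 and 5.92 in OSe animals 1 to 4, and 6.71, 6.53, 7.22 and 6.59 in Mix animals 1 to 4. The recombinase DMC1 measured 6.52, 6.53, 5.98, 6.68 and 6.15 in ISe animals 1 to 5, 6.61, 5.80, 6.52 and 6.36 in OSe animals 1 to 4, and 6.54, 6.39, 7.10 and 6.57 in Mix animals 1 to 4. SPO11 passed the other-organ level in 1 calf, Mix animal 3, and DMC1 in none. STRA8, the retinoic acid target that opens the way into meiosis, was below the level in every calf, with a mean ± SD of 6.37 ± 0.09 in the 5 ISe calves, 6.45 ± 0.10 in the 4 OSe calves and 6.51 ± 0.16 in the 4 Mix calves, and its 13 values spanned only 6.25 to 6.72.

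Among genes of sperm chromatin, TNP2 and PRM1 lay above the other-organ level and PRM2, PRM3 and TNP1 below it. TNP2 measured 8.04, 8.44, 8.16, 8.12 and 7.81 in ISe animals 1 to 5, 8.17, 8.28, 7.82 and 8.19 in OSe animals 1 to 4, and 8.39, 8.37, 8.07 and 8.07 in Mix animals 1 to 4. PRM1 had a mean ± SD of 7.40 ± 0.12 in the 5 ISe calves, 7.35 ± 0.05 in the 4 OSe calves and 7.48 ± 0.11 in the 4 Mix calves. The 13 values of PRM1 spanned 7.27 to 7.64, and its SD stood at percentile 12 among probe sets of its level decile. The annotation of the cattle assembly ARS-UCD2.0 places TNP2, PRM3, PRM2 and PRM1 next to each other among protein-coding genes. Their mean levels were 8.15, 6.47, 6.56 and 7.41. TNP1, which lies on another chromosome, had a mean ± SD of 6.02 ± 0.07 in the 5 ISe calves, 5.92 ± 0.11 in the 4 OSe calves and 6.06 ± 0.10 in the 4 Mix calves.

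Of the acrosome genes, the zona pellucida binding proteins ZPBP and ZPBP2 were above the other-organ level in all calves. ZPBP measured 8.53, 8.59, 8.26, 8.62 and 8.27 in ISe animals 1 to 5, 8.49, 8.31, 8.41 and 8.36 in OSe animals 1 to 4, and 8.37, 8.36, 8.86 and 8.50 in Mix animals 1 to 4. ZPBP2 measured 7.41, 7.75, 7.31, 7.82 and 7.50 in ISe animals 1 to 5, 7.80, 7.42, 7.48 and 7.41 in OSe animals 1 to 4, and 7.73, 7.56, 8.27 and 7.67 in Mix animals 1 to 4. Both were highest in Mix animal 3 and lowest in ISe animal 3. SPACA1, an acrosomal membrane protein that shapes the acrosome in mice, was above the level in 7 of 13 calves, with 7.13, 7.38, 6.91, 7.57 and 7.16 in ISe animals 1 to 5, 7.55, 7.06, 7.19 and 6.68 in OSe animals 1 to 4, and 6.98, 7.20, 7.83 and 7.19 in Mix animals 1 to 4. It too was highest in Mix animal 3, and its lowest value was that of OSe animal 4. CRISP2, found in the acrosome and tail of sperm, passed the level in 1 calf and SPATA16, which is linked to round-headed sperm in humans, in 2. The remaining acrosome genes had means of 6.75 for the lysozyme-like SPACA3, 6.24 for the protease acrosin (ACR), 6.08 for the fusion protein IZUMO1, 5.98 for ACRV1 and 5.40 for the hyaluronidase SPAM1.

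The flagellum genes held both ends of the scale. ODF2, a protein of the outer dense fibres that is also part of centrosomes in many cells, measured 9.91, 9.79, 9.48, 9.78 and 9.64 in ISe animals 1 to 5, 9.75, 9.64, 9.71 and 9.76 in OSe animals 1 to 4, and 9.89, 9.68, 9.70 and 9.75 in Mix animals 1 to 4. SPATA6, which joins head and tail of sperm in mice, measured 9.39, 9.49, 9.55, 9.31 and 9.44 in ISe animals 1 to 5, 9.53, 9.79, 9.18 and 9.28 in OSe animals 1 to 4, and 9.49, 9.17, 9.42 and 9.11 in Mix animals 1 to 4. These genes stood at percentiles 83.9 and 79.1 of all probe sets. TCP11 measured 8.15, 8.28, 8.07, 8.13 and 8.06 in ISe animals 1 to 5, 8.26, 8.48, 8.15 and 7.99 in OSe animals 1 to 4, and 8.14, 8.01, 8.20 and 8.17 in Mix animals 1 to 4. AKAP4, which anchors protein kinase A in the fibrous sheath of the tail, measured 7.70, 7.41, 8.52, 7.74 and 7.73 in ISe animals 1 to 5, 7.82, 7.86, 7.16 and 7.88 in OSe animals 1 to 4, and 7.69, 7.50, 7.66 and 8.21 in Mix animals 1 to 4. The SD of AKAP4 stood at percentile 91.2 among probe sets of its level decile, with ISe animal 3 the highest calf and OSe animal 3 the lowest. Far below them, the outer dense fibre protein ODF1 had a mean of 4.49, SPATA4 4.01, the mitochondrial protein SPATA19 4.98 and MEIG1, needed for sperm formation in mice, 5.30. The channel subunits CATSPER1 and CATSPER3 averaged 6.17 and 6.21, the anchoring protein AKAP3 5.82, SPATA18 6.21 and CBY2 6.70.

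CLGN (calmegin), a chaperone of the endoplasmic reticulum that folds sperm adhesion proteins, was the highest of the 44 genes, at percentile 94.3 of all probe sets. It measured 10.93, 10.69, 10.86, 10.63 and 10.84 in ISe animals 1 to 5, 10.69, 11.04, 11.02 and 10.89 in OSe animals 1 to 4, and 10.74, 10.73, 10.84 and 11.01 in Mix animals 1 to 4. OSe animal 2 was the highest and ISe animal 4 the lowest, and the groups overlapped. Its relatives in function were low, with a mean of 6.30 for the calreticulin CALR3 and 5.88 for the heat shock protein HSPA1L. Among sperm isoenzymes of glycolysis, LDHC averaged 6.74, GAPDHS 6.53 and PGK2 4.27. The testis-specific kinases averaged 6.20 (TSSK6), 5.93 (TSSK3) and 4.93 (TSSK1B). HSPA1L, LDHC, PGK2 and TSSK1B have close relatives in the genome, and whether their probe sets also bind those relatives was not tested.

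The calves also differed in the level of genes that mark germ cells of the newborn testis. For each calf a germ cell index was formed as the mean deviation, on the log2 scale, of 23 gonocyte and spermatogonium genes, among them DDX4, DAZL, NANOS2, PIWIL4, SALL4 and ZBTB16, none of which is a member. Of these 23 genes, 13 were above the other-organ level, 7 were between and 3 were below. The index was -0.10, 0.13, -0.44, 0.27 and -0.05 in ISe animals 1 to 5. It was 0.11, -0.32, -0.09 and -0.28 in OSe animals 1 to 4, and 0.07, 0.06, 0.51 and 0.14 in Mix animals 1 to 4. Group means were -0.04 ± 0.27 (SD, n = 5), -0.15 ± 0.20 (n = 4) and 0.20 ± 0.21 (n = 4), and the ranges of the 3 groups overlapped. In bulk tissue, fewer germ cells and less RNA per germ cell cannot be told apart.

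Of the 44 genes, 9 rose with the index from calf to calf, namely 6 of the 7 meiosis genes and 3 acrosome genes. Each of the 18087 genes was correlated with the index over the 13 calves, with a two-sided permutation p (100000 resamples) adjusted by the Benjamini-Hochberg method over all of them. The 23 index genes, each set against the index of the others, had r from 0.0655 to 0.969, and 15 were called. Over all genes, 4.59% were called with a positive correlation and 1.6% with a negative one. Among the 44 genes no negative one was called. ZPBP2 was first (r = 0.93, rho = 0.945, permutation p = 1e-05, adjusted p = 0.00197), this p being the smallest that the resamples can give. HORMAD1 followed (r = 0.913, rho = 0.89, permutation p = 4e-05, adjusted p = 0.00346). Next came MSH4 (r = 0.889, rho = 0.858, permutation p = 6e-05, adjusted p = 0.0045), DMC1 (r = 0.877, rho = 0.907, permutation p = 0.00019, adjusted p = 0.00893) and SPO11 (r = 0.877, rho = 0.819, permutation p = 0.0001, adjusted p = 0.00591). SYCP1 (r = 0.847, rho = 0.753, permutation p = 0.00052, adjusted p = 0.0169), SPACA1 (r = 0.844, rho = 0.813, permutation p = 0.00043, adjusted p = 0.015), ZPBP (r = 0.83, rho = 0.802, permutation p = 0.00035, adjusted p = 0.0131) and TEX11 (r = 0.827, rho = 0.659, permutation p = 0.0006, adjusted p = 0.0184) completed the 9. Their rho is Spearman's, with its own permutation p of 4e-05 to 0.0167, and 7 of the 9 passed the adjusted test by rho, all but SYCP1 and TEX11. Every one of the 9 was highest in Mix animal 3. The lowest calf was ISe animal 3 for 4 of them, OSe animal 4 for 3 and OSe animal 2 for 2.

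**Figure D2:**
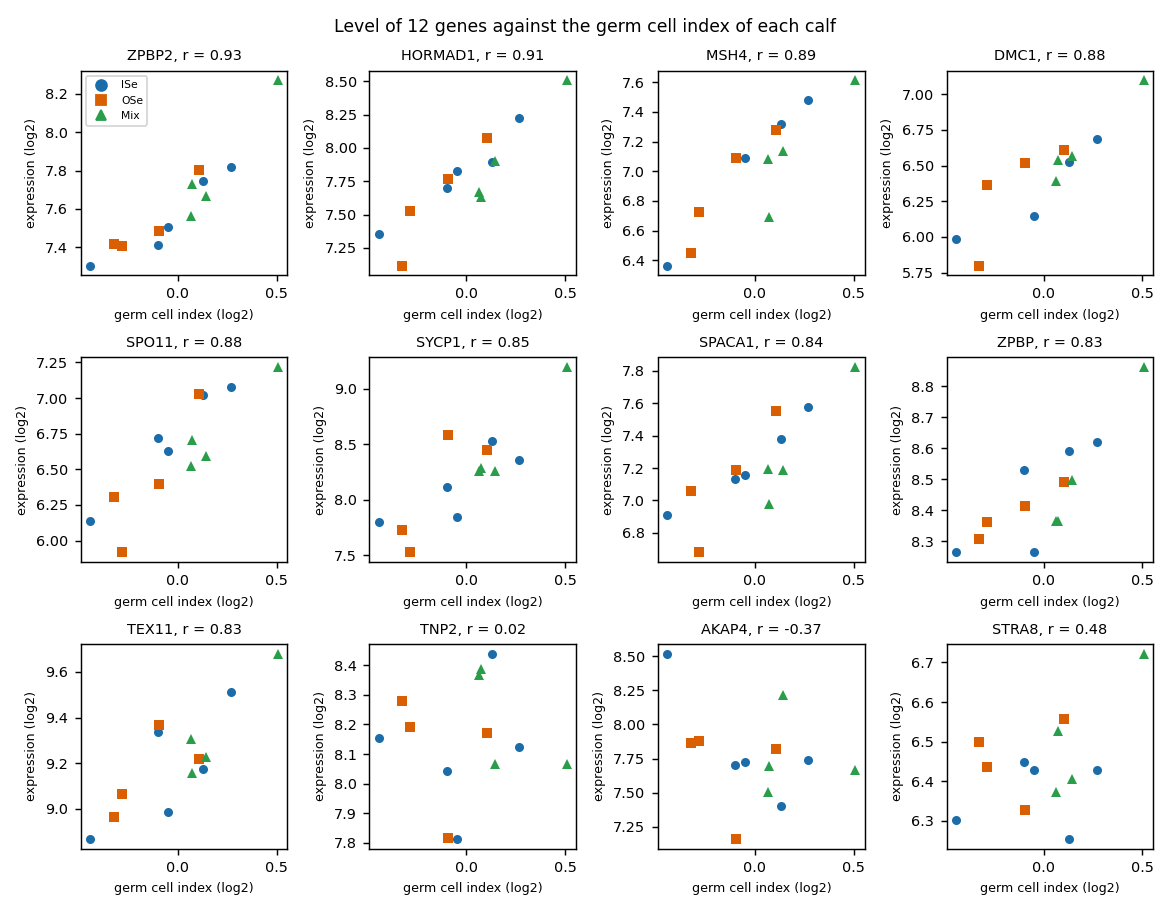
Level (log2) of the 9 genes called with the germ cell index, and of TNP2, AKAP4 and STRA8 for contrast, against the index of each of the 13 calves (log2), coloured by selenium form. The 9 genes have r from 0.827 to 0.930, while STRA8 has 0.48, TNP2 0.02 and AKAP4 -0.37, or -0.04 without ISe animal 3.

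The calls changed when a few calves were left out. Without ISe animal 3 and Mix animal 3, the 2 calves farthest from the median index, r of the 9 genes was 0.609 to 0.890, and the permutation p stayed between 0.00015 and 0.0458. Only ZPBP2 kept an adjusted p under 0.05 (0.0315), so the calls of the other genes did not hold without those calves. Over all genes, positive calls fell from 831 to 116 in the same fit. With fewer calves and a narrower range of the index, fewer calls follow in any case. Without Mix animal 3 alone 4 genes were called, ZPBP2, SPO11, MSH4 and HORMAD1, and r of the 9 was 0.721 to 0.913. With the group means removed and permutation within groups, r was 0.810 to 0.948 and 7 were called, all but SYCP1 and TEX11 (highest adjusted p = 0.112). With DDX4 alone as the index the same 9 genes were called.

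By level, 5 of the 12 genes above the other-organ level, 3 of the 6 between and 1 of the 26 below it were called with the index. The one below was DMC1. It had a mean at percentile 27.9 of all probe sets. Over all genes of any level 4.59% were called positively, and their share within each level class was not counted. The other 7 genes above the other-organ level gave no call: CLGN (r = -0.467, rho = -0.588, permutation p = 0.109, adjusted p = 0.357), SPATA6 (r = -0.30), AKAP4 (r = -0.37, and -0.04 without ISe animal 3), TCP11 (r = 0.06), TNP2 (r = 0.02), PRM1 (r = 0.34) and ODF2 (r = 0.42). STRA8 was the only meiosis gene without a call (r = 0.478, rho = 0.193, permutation p = 0.0961, adjusted p = 0.335), and its r fell to -0.16 without ISe animal 3 and Mix animal 3. At an unadjusted permutation p under 0.05 there were 15 of the 44 genes, beside 20.8% of all genes, and 6 of the 15 did not pass the adjusted test. They were CATSPER3 (r = 0.582, rho = 0.57, permutation p = 0.037, adjusted p = 0.204), GAPDHS (r = 0.587, rho = 0.538, permutation p = 0.0346, adjusted p = 0.198), AKAP3 (r = 0.672, rho = 0.856, permutation p = 0.013, adjusted p = 0.117), LDHC (r = 0.61, adjusted p = 0.178), CRISP2 (r = 0.60, adjusted p = 0.185) and, in the opposite direction, ODF1 (r = -0.62, adjusted p = 0.168). For AKAP3 rho alone passed (adjusted p = 0.025).

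The 9 genes also varied together. Their 36 pairwise correlations over the calves ran from 0.679 to 0.938 with a median of 0.830, while the 595 pairs of the other 35 genes had a median of 0.08. Since the 9 were chosen for following a common index, this is a description. Their SD over the 13 calves was 0.169 to 0.439, and 8 of the 9 lay above the 75th percentile of SD among probe sets of their level decile. Of the other 35 genes 3 did, AKAP4, CRISP2 and HSPA1L.

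Markers of other cell types were set beside the same index. Of 50 marker genes of Sertoli, Leydig, peritubular, endothelial, macrophage, red blood and ciliated cells, 1 was called with the index. It was the ciliary dynein DNAH9 (r = 0.848, adjusted p = 0.0154). Over all genes, 4.59% were called positively and 1.6% negatively. The median r was -0.24 over 10 Sertoli cell genes, -0.35 over 6 Leydig cell genes, -0.50 over 5 endothelial genes and 0.42 over 5 macrophage genes. It was -0.34 over 4 peritubular genes, 0.24 over 6 red blood cell genes and 0.05 over 14 ciliated cell genes, beside -0.09 over all genes. The defining ciliary regulator FOXJ1 averaged 7.50 and was not called. The part of any of these cell types in the calls above was not tested. The correlation of the array median with the index did not pass (r = -0.32, permutation p = 0.284, and rho = -0.11, permutation p = 0.724), and r was 0.13 without OSe animal 2.

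Other genes of the same pathways were counted from lists that do not overlap with the 44. Of 41 other meiosis genes, 18 were above the other-organ level and 7 below it, and 14 were called with the index, all positively, with a median r of 0.653 over the list. BOLL, a translational regulator of the DAZ family, was the highest of them with a mean of 9.50 and r = 0.942 (adjusted p = 0.00197). ANKRD31, a partner of the DNA-cutting machinery, averaged 8.61 with r = 0.873 (adjusted p = 0.00945). The cohesin STAG3 had the closest relation of the list (r = 0.956, adjusted p = 0.00197), followed by the germ cell bridge protein TEX14 (r = 0.951) and the cohesin SMC1B (r = 0.948), named here after their values were seen. YTHDC2, BRCA2 and SGO2, at 9.31, 9.02 and 8.51, were not called (adjusted p = 0.537, 0.127 and 0.44).

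Among 96 other genes of spermatids and sperm, 12 were above the other-organ level and 72 below it, with a median r of 0.01. The index called 12 of them with a positive correlation and 1 with a negative one. The 5 highest were the calcineurin subunit PPP3CC (mean 10.25), the CatSper subunits CATSPERG (9.27) and CATSPERD (9.20), SPATA24 (9.05) and the acrosomal protein DKKL1 (9.03), and none of these was called (adjusted p from 0.358). The germ cell adenine nucleotide carrier SLC25A31 (r = 0.870, adjusted p = 0.00557) was the one called gene of this list that was also above the floor. ADAM2, a sperm surface protein, was called while below the floor (r = 0.887, adjusted p = 0.00526). These last 2 were named after their values were seen.

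**Figure D3:**
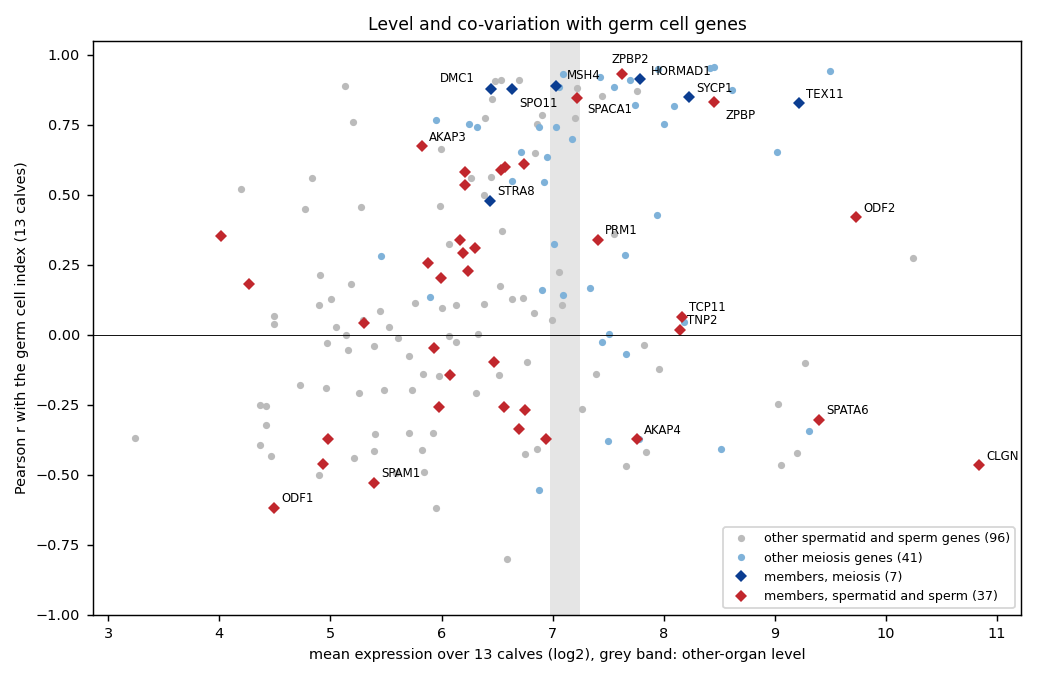
Pearson r with the germ cell index over 13 calves (vertical axis) against mean level (log2, horizontal axis) for the 44 genes (diamonds), 41 other meiosis genes and 96 other spermatid and sperm genes (dots), with the other-organ level in grey. The 6 called meiosis genes have r of 0.827 or more at levels from 6.44 (DMC1) to 9.22 (TEX11), whereas CLGN, SPATA6 and ODF2 are high in level without following the index.

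The study's question was whether the form of maternal selenium was reflected in the newborn testis, and none of the 44 genes passed a test for it. All 13 arrays were fitted together in limma with 1 mean per group, and p-values were adjusted over all 26773 probe sets. The 3 pairwise comparisons share arrays, so they are not independent of each other. In the F test over the 3 forms 0 genes passed, against 0% of all probe sets, and 1 had an unadjusted p under 0.05, against 4.5%. The adjusted p of the F test was 0.954 for SPAM1, the gene with the smallest p.

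SPAM1, the hyaluronidase with which sperm cross the cumulus, was below the other-organ level in all calves. Its values were 5.58, 5.59, 5.56, 5.32 and 5.42 in ISe animals 1 to 5, 5.45, 5.61, 5.40 and 5.40 in OSe animals 1 to 4, and 5.18, 5.03, 5.21 and 5.40 in Mix animals 1 to 4. Mix calves were the lower ones but overlapped with both other groups. The change was -0.29 ± 0.09 (SE, log2) for Mix minus ISe (limma, unadjusted p = 0.00698, adjusted p = 0.967) and -0.26 ± 0.09 for Mix minus OSe (unadjusted p = 0.0168, adjusted p = 0.581).

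In OSe against ISe 0 of 44 genes passed, against 0% of all probe sets, and 0 had an unadjusted p under 0.05, against 2.62%. Of the 44, 16 were higher in OSe, with a median change of -0.02, beside 59.5% of all probe sets higher and a median of 0.02. This count was 12 under quantile normalization or median centring and 25 without ISe animal 2. AKAP3 came first by p, at 5.83, 6.40, 5.63, 5.83 and 5.75 in ISe animals 1 to 5, 5.83, 5.44, 5.76 and 5.59 in OSe animals 1 to 4, and 5.93, 5.83, 6.01 and 5.88 in Mix animals 1 to 4. Its change was -0.23 ± 0.14 (SE), and ISe animal 2 stood far above the other ISe calves. TSSK3 measured 6.11, 5.94, 5.77, 5.76 and 5.78 in ISe animals 1 to 5, 5.93, 6.10, 6.19 and 5.97 in OSe animals 1 to 4, and 5.95, 5.92, 6.13 and 5.54 in Mix animals 1 to 4, a change of 0.18 ± 0.12. ACRV1 measured 5.71, 6.03, 5.89, 5.87 and 6.08 in ISe animals 1 to 5, 5.99, 6.18, 5.97 and 6.05 in OSe animals 1 to 4, and 6.08, 6.08, 5.87 and 5.90 in Mix animals 1 to 4, a change of 0.13 ± 0.09. For CRISP2 the values were 6.77, 6.72, 6.33, 6.92 and 6.65 in ISe animals 1 to 5, 6.43, 6.54, 6.48 and 6.22 in OSe animals 1 to 4, and 6.56, 6.56, 7.21 and 6.07 in Mix animals 1 to 4, a change of -0.26 ± 0.18. In each of these genes OSe and ISe overlapped. AKAP3 was at -0.10 without ISe animal 2, and ACRV1 at 0.08 without ISe animal 1.

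In Mix against ISe 0 genes passed, against 0% of all probe sets, and 1, SPAM1, had an unadjusted p under 0.05, against 3.72%. Of the 44, 29 were higher in Mix, with a median change of 0.04 beside 0.0047 over all probe sets, of which 51.5% were higher. Without ISe animal 3, or without Mix animal 3, 23 were higher. SPATA4 followed SPAM1 by p, with 4.07, 3.83, 3.77, 3.86 and 3.97 in ISe animals 1 to 5, 4.07, 4.31, 4.01 and 3.77 in OSe animals 1 to 4, and 4.16, 4.03, 4.34 and 4.00 in Mix animals 1 to 4. That was a change of 0.23 ± 0.11 (SE) at a level near the bottom of the scale. CALR3 measured 6.31, 6.31, 6.15, 6.31 and 6.09 in ISe animals 1 to 5, 6.31, 6.31, 6.40 and 6.31 in OSe animals 1 to 4, and 6.39, 6.40, 6.31 and 6.30 in Mix animals 1 to 4, with 7 calves at the same value to 4 decimals and a change of 0.12 ± 0.07. The channel subunit CATSPER1 measured 6.03, 6.25, 6.03, 6.15 and 6.14 in ISe animals 1 to 5, 6.08, 6.37, 5.86 and 6.14 in OSe animals 1 to 4, and 6.25, 6.20, 6.30 and 6.37 in Mix animals 1 to 4, a change of 0.16 ± 0.09. None of these separated the groups.

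In Mix against OSe 0 genes passed, against 0% of all probe sets, and 2 had an unadjusted p under 0.05, against 8.53%. These were SPAM1, lower in Mix, and acrosin. Of the 44, 31 were higher in Mix, with a median change of 0.08, beside 45.3% of all probe sets higher and a median of -0.02. Acrosin, ACR, measured 6.12, 6.43, 6.10, 6.35 and 6.30 in ISe animals 1 to 5, 5.88, 6.06, 6.11 and 6.20 in OSe animals 1 to 4, and 6.30, 6.90, 6.17 and 6.21 in Mix animals 1 to 4, a change of 0.33 ± 0.15 (SE, unadjusted p = 0.0435 in limma, adjusted p = 0.582). Mix animal 2 was the highest, and without it the change was 0.16. SPATA16 measured 7.14, 6.96, 6.83, 6.77 and 7.11 in ISe animals 1 to 5, 7.10, 7.10, 6.94 and 7.07 in OSe animals 1 to 4, and 6.49, 6.99, 6.75 and 6.98 in Mix animals 1 to 4, a change of -0.25 ± 0.12, and was -0.14 without Mix animal 1. AKAP3 was higher in Mix by 0.26 ± 0.14. It was the one gene of the 44 without overlap between groups in any pair, the highest OSe calf being at 5.831 and the lowest Mix calf at 5.835. Among all probe sets the groups did not overlap in 0.743% for OSe and ISe, in 1.02% for Mix and ISe, and in 4.24% for Mix and OSe, of which 1.53% were higher in Mix.

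Taken by role, the 7 meiosis genes were all higher in Mix than in ISe (median 0.14) and all higher in Mix than in OSe (median 0.31), while 1 of 7 was higher in OSe than in ISe (median -0.06). None passed the test in any pair. Of these 7 genes, all but STRA8 were called with the germ cell index, whose mean was highest in Mix, and the part of the index in their group differences was not tested. The 5 sperm chromatin genes, none of which was called with the index, were also all higher in Mix than in ISe (median 0.08) and than in OSe (median 0.11), without passing the test. Under quantile normalization 4 of these 5 were higher in Mix than in ISe, and without Mix animal 1 it was 4 of 5 against each other group (medians 0.03 and 0.05). The 3 glycolytic genes were all higher in Mix than in OSe (median 0.07) and 1 of 3 was higher in Mix than in ISe. Without Mix animal 3, or without OSe animal 3, 2 of 3 were higher in Mix than in OSe. The other roles went both ways. Higher in Mix than in OSe were 1 of 3 kinases (median -0.16), 1 of 3 chaperones (-0.08), 8 of 13 flagellum genes (0.05) and 6 of 10 acrosome genes (0.08). Against ISe these counts were 2 of 3, 2 of 3, 7 of 13 and 5 of 10. SYCP1 had the largest change of the meiosis genes, 0.43 for Mix minus OSe and 0.37 for Mix minus ISe, at 8.13 ± 0.31, 8.07 ± 0.52 and 8.50 ± 0.47 (SD) in ISe, OSe and Mix. Without Mix animal 3 its changes were 0.20 and 0.14. Without that calf, 4 of 7 meiosis genes were higher in Mix than in ISe (median 0.06) and 6 of 7 higher in Mix than in OSe (median 0.11). Without ISe animal 3, 5 of 7 were higher in Mix than in ISe (median 0.09). Without OSe animal 2, 4 of 7 were higher in OSe than in ISe (median 0.04).

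**Figure D4:**
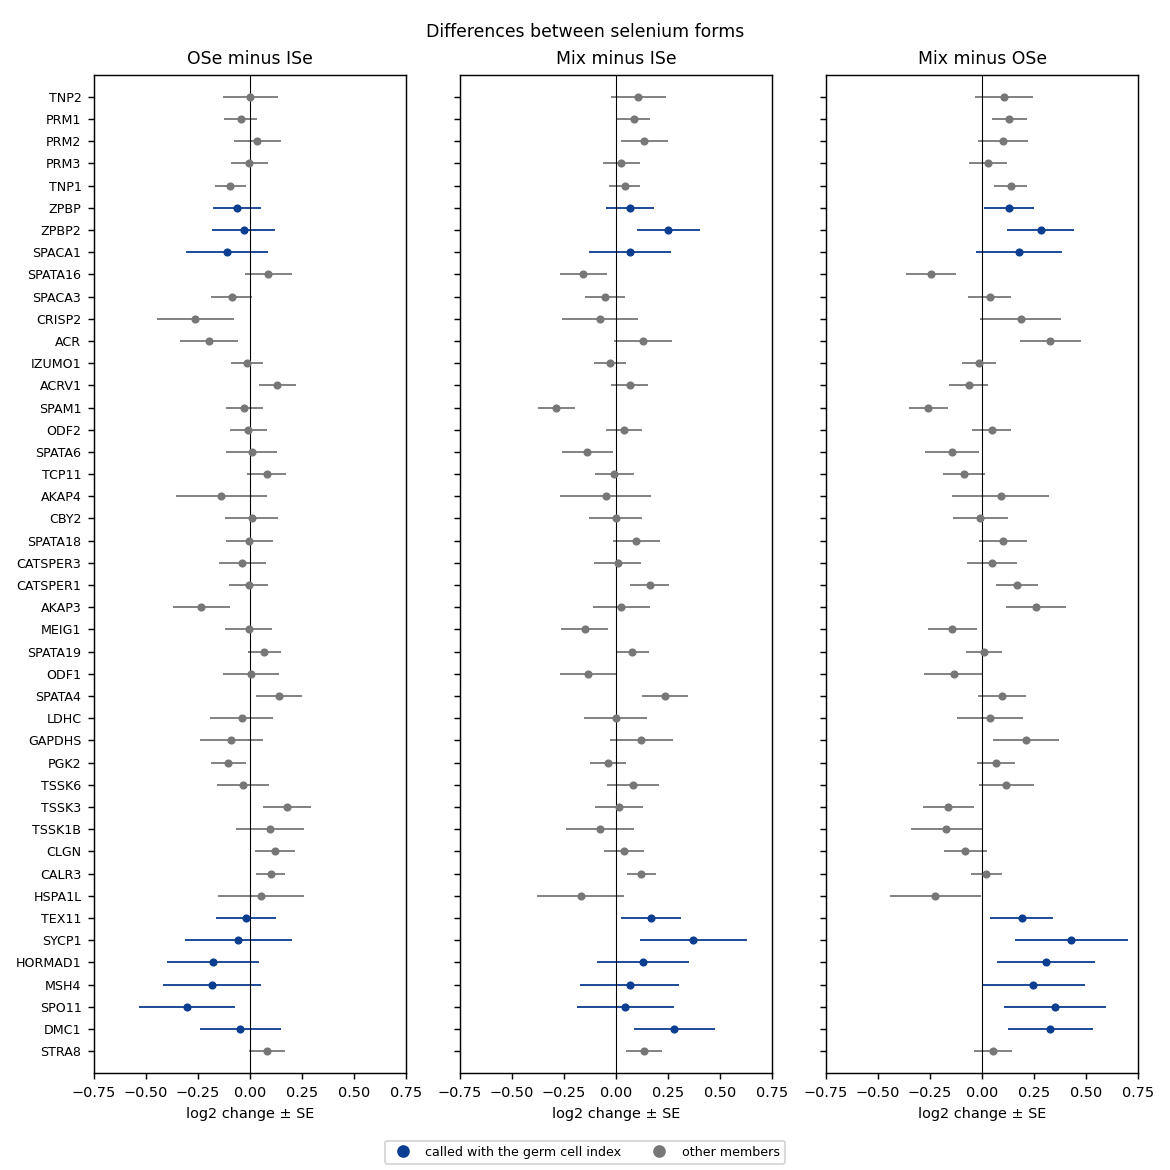
Log2 change with its SE for each of the 44 genes in the 3 pairwise comparisons (horizontal axes), in the order of the plot of levels by calf, with the 9 genes called with the germ cell index in blue. No gene passed an adjusted p of 0.05, and the changes run from -0.30 (SPO11, OSe minus ISe) to 0.43 (SYCP1, Mix minus OSe), which are -0.14 without OSe animal 4 and 0.20 without Mix animal 3.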

How the data were processed

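Testis RNA of 13 newborn calves was measured on Affymetrix arrays, 1 per calf. Per the labels' protocols, biotin-labelled cRNA was made from Trizol-extracted RNA with oligo(dT) priming. GCOS 1.2 and Partek 6.4 are named in the submitters' processing notes without a role. The deposited values are log2 expression values, as their range of 2.07 to 14.6 shows. Background correction, probe summary, normalization and centring are not given in the sources used here.

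Of 26773 probe sets, 18550 carried 1 symbol, 595 several and 7628 none. One probe set per gene, the one with the highest mean, left 18087 genes. Groups were taken from the sample titles. Differences were fitted in limma 3.58.1 (R 4.3.3) with empirical Bayes moderation. Correlations, permutations and figures used Python 3.11.15, numpy 2.4.6 and matplotlib 3.10.9. Both tests were checked on simulated data. The planted changes and correlations were larger than most seen here, so power at the sizes seen was not checked. Named with values per calf were the 10 genes with the highest mean, the 4 with the smallest p in the F test and in each pair, and the 4 with the largest SD, and the genes called with the index were added after seeing the data. From the other lists the 5 highest genes were named. The genes and lists were chosen with earlier results of these data known. Alternatives were other normalizations, filters, floors and indices, and each calf left out.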

Additional observations from a re-analysis of the deposited data

Results flagged for a closer look

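Dixon's test at 95% was run in 84 groups of 4 or 5 calves (27 of the 44 genes, and the germ cell index). In 5 of them a calf was far from the others, where chance gives about 1 in 20. Some of these genes were taken for their spread, small p or index call in the same data, so that rate is a rough guide. SYCP1 was at 9.20 in Mix animal 3, against 8.26 to 8.28 in the other Mix calves. AKAP4 was at 7.16 in OSe animal 3, against 7.82 to 7.88 in the other OSe calves. AKAP3 was at 6.40 in ISe animal 2, against 5.63 to 5.83. LDHC was at 6.99 in OSe animal 1, against 6.59 to 6.64. CALR3 was at 6.40 in OSe animal 3, while the other OSe calves shared the value 6.31; with 3 tied values the test is met whatever the gap, so this one says nothing about the calf.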

How the results depend on the processing

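In limma 0 probe sets passed in the F test and in each pair under quantile normalization, median centring, no moderation, a mean-variance trend, a filter on dim probe sets, 1 probe set per gene and the replicate block, with 0 called in each comparison under the block. The sample titles do not say whether equal animal numbers pair calves. Deviations of same-numbered calves over all probe sets correlated between -0.15 and 0.10, so no pairing was seen. A pairing that acts on a part of the probe sets could be missed this way. Leaving out each calf gave 0 to 1 in the F test and in Mix minus OSe, and 0 to 0 in the other pairs; the 1 probe set, found without OSe animal 3 (limma, adjusted p = 0.0328 and 0.0123), was not among the 44 genes. Without moderation 1112, 679, 945 and 2148 probe sets had an unadjusted p under 0.05 in the F test, OSe minus ISe, Mix minus ISe and Mix minus OSe, against 1206, 701, 995 and 2283 with it. In each pair the 4 genes with the smallest p kept their direction under every alternative that gave them a value. Those genes were picked by p from the same arrays, so a kept direction is no separate support for them. Of the 44 genes 26 turned direction under at least 1 alternative in OSe minus ISe, 22 in Mix minus ISe and 9 in Mix minus OSe. Among the 22 genes named by the rule these were 8, 12 (HORMAD1, MSH4 and SPO11 among them) and 2. The count of 12 genes above the floor was 12 to 12 without each calf, 8 with the 95th percentile of the other-organ list, 7 with the median of all probe sets, and 20 with their 25th percentile or with olfactory receptors. The count of 9 genes called with the index was 4 to 10 without each calf, and 1 without the 2 farthest calves, a fit with fewer samples. Spearman's rho, removal of group means, DDX4 alone and quantile normalization gave 7 to 9. Signal over background could not be computed, so genes below the floor may still be transcribed.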

Other observations

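Genes of other organs also held a few that followed the germ cell index. Of the 96, 6 were called, all positively and all below the floor, beside 4.59% of all genes called positively. Among the 6 were the pancreatic lipase PNLIP (r = 0.850, permutation test over all genes, adjusted p = 0.0162) and the amino acid enzyme TAT (r = 0.804, adjusted p = 0.0272). The stomach proton pump subunit ATP4B stood at 10.42, the highest of that list.

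The 3 genes with a wide spread that did not follow the index were each most like different genes over the 13 calves, by Pearson r as a description of these arrays. AKAP4 was most like PCSK5 (0.850), CRISP2 most like BTBD6 (0.917) and HSPA1L most like USP28 (0.876).

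Some probe sets held the same value to 4 decimals on 3 or more arrays. This was so for 5 of the 44 genes, PRM1, IZUMO1, SPATA19, PGK2 and CALR3, and for 12.2% of all probe sets, or 19.5% of those under the 25th percentile of level. PRM1 and PGK2 each shared a value on 4 arrays and CALR3 on 7.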
